A study of Mus musculus with 14 samples.

Results

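The p53 pathway was followed through 31 mouse genes: Trp53, which encodes p53, its inhibitors Mdm2 and Mdm4, and 28 genes taken as targets of p53. They were chosen by name, with earlier results of these data known. All 31 were found among the 24346 gene symbols of the RNA-seq tables and the 24421 symbols of the RNA immunoprecipitation (RIP) tables. The study has 14 libraries in 7 groups of 2. The RNA-seq groups were wild type, untreated embryonic stem cells of a line described only as home made (mESC), wild type, untreated primary embryonic fibroblasts (MEF), a further group of wild type, untreated stem cells that served as the control of the knockdown (KD_control), and untreated stem cells with Dppa5a knocked down (Dppa5a_KD). Dppa5a is an RNA-binding protein of pluripotent cells. For RIP, RNA was pulled down with an antibody from stem cells that all overexpressed 3Flag-Dppa5a: with IgG from untreated cells (IgG_RIP), with a Flag antibody from untreated cells (Flag_RIP), and with the Flag antibody from cells given a treatment labelled HU (HU_Flag_RIP). The labels do not say what HU stands for, its dose or its duration, nor how the knockdown was made or whether a line is 1 clone. Stem cells were kept on fibroblast feeder cells with LIF and were passaged on gelatin before harvest. Neither an input library nor an IgG library of HU-treated cells was analysed here, so more of an RNA in the cells and more recovery of it per molecule cannot be told apart.

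The transcription factor p53 is held low in unstressed cells by Mdm2, a ubiquitin ligase that is itself a p53 target, and by the related protein Mdm4. DNA damage and stalled replication stabilise p53, which then raises genes that stop the cell cycle, repair DNA, limit growth or start cell death. In embryonic stem cells, p53 is known to be abundant even without stress, and its response is known to favour differentiation and cell death over a lasting arrest.

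p53 binds a decamer of DNA, and a full response element holds a pair of these decamers close together. The decamer was looked for by its usual consensus, which reads the same on both strands, in RefSeq promoter windows (GRCm38.p6) from 250 bases before to 50 bases after each transcription start. Of the 31 genes, 23 had a window, and 9 of these (39.1%) held at least 1 decamer in any of their windows, beside 2582 of 27025 genes in all (9.55%). Those 9 were Cdkn1a, Mdm2, Ccng1, Trp53, Gadd45a, Bax, Aen, Ei24 and Sesn1. Cdkn1a held a pair with 12 bases between its decamers, upstream of the start at position 29090979 of chromosome 17, and 20 genes in all (0.0740%) held a pair with a spacer of at most 13 bases. The window of the other Cdkn1a start, at position 29093769, held no pair. The 10 letters right after the second Cdkn1a decamer miss the consensus only at their first letter, so they are not marked below. Which letters p53 would bind was not tested. In mm10 the deposited tables place Cdkn1a on chromosome 17 from 29090986 to 29100722, Mdm2 on chromosome 10 from 117688875 to 117710758 and Ccng1 on chromosome 11 from 40748552 to 40755286, so the stretches lie just upstream of these genes. A match describes the letters only and shows no binding. Of the 7 pathway genes with a window that were higher in HU_Flag_RIP than in Flag_RIP, 3 (42.9%) held a decamer. That share is near the 39.1% of the 23 genes, so no link between decamer and HU is read from it. The 3 stretches below, each of 100 bases, are shown because Cdkn1a, Mdm2 and Ccng1 are the genes with a decamer that were also higher in the HU RIP libraries; capitals mark the decamers.
Cdkn1a, chr17:29090869-29090968, plus strand: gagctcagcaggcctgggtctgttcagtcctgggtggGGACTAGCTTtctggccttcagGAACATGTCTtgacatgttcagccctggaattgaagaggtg
Mdm2, chr10:117710889-117710988, minus strand: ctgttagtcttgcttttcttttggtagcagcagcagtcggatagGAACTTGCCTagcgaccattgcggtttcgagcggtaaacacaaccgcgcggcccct
Ccng1, chr11:40755417-40755516, minus strand: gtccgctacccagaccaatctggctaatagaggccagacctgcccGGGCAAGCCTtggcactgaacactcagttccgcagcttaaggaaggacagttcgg

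Dppa5a itself had 5126 and 5417 FPKM (fragments scaled to transcript length and library depth) in KD_control and 101 and 358 FPKM in Dppa5a_KD, as the label states. In the RIP libraries, all from cells that overexpress it, Dppa5a stood at 231 and 252 CPM (counts scaled to library depth, with TMM factors that align the libraries) with IgG. It stood at 169 and 160 CPM in the Flag_RIP libraries and at 114 and 114 CPM after HU. Pluripotency markers summed to between 2167 and 4144 FPKM in the 3 stem cell groups and to between 17.7 and 23.4 FPKM in MEF. Fibroblast markers summed to between 71.4 and 208 FPKM in the stem cell groups and to between 5835 and 6831 FPKM in MEF. RIP totals were between 3472020 and 3703236 counts in IgG_RIP, between 9469168 and 13033886 in Flag_RIP and between 7378729 and 9641507 in HU_Flag_RIP, of which the ribosomal RNA precursor Rn45s took between 39.3% and 73.2%. FPKM summed to between 447657 and 585678 per library. Eif2s3y, a Y-linked gene, had 43.2 and 41.2 FPKM in mESC and was listed at 0 in both KD_control and both Dppa5a_KD libraries, and at 7.29 and 8.76 in MEF. Since the labels give no separate cultures for the replicates, p-values reflect only the variation among these libraries, and that variation may be technical.

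In HU-treated cells the Flag antibody recovered more of several p53 target RNAs. Of the 29 p53 pathway genes tested, 8 were higher in HU_Flag_RIP than in Flag_RIP and 0 were lower. They were Trp53inp1, Ccng1, Btg2, Phlda3, Mdm2, Zfp365, Apaf1 and Cdkn1a, and they rose by between 1.63 and 2.55 on the log2 scale. Over all 10473 genes tested, 0.143% were called higher, which is 15 genes, and these 8 were among them; 0.468% were called lower. The test was edgeR's quasi-likelihood test on counts, called at a Benjamini-Hochberg adjusted p under 0.05 over all genes. The median log2 fold change was 1.23 over the 29 genes and -0.0022 over all genes tested. The 29 genes belong to a set chosen with earlier results of these data known, so these counts and medians are descriptive. In these bulk samples, fewer cells of a type and less RNA per cell cannot be told apart.

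Among the regulators, Mdm2 stood at 47.4 and 58.6 CPM in HU_Flag_RIP, at 15.6 and 18.6 in Flag_RIP and at 12.3 and 17.4 in IgG_RIP. Both HU libraries lay above all 4 others, and the log2 fold change against Flag_RIP was 1.63 (SE 0.33, edgeR adjusted p = 0.017). Mdm4 stood at 51.2 and 73.5 CPM in HU_Flag_RIP and at 18.2 and 42.2 in Flag_RIP, a log2 fold change of 1.05 that did not pass (SE 0.36, edgeR adjusted p = 0.65). Trp53 stood at 31.3 and 20.8 CPM in HU_Flag_RIP, at 41.1 and 22.7 in Flag_RIP and at 26.3 and 24.8 in IgG_RIP. These libraries overlapped, and the log2 fold change of Trp53 was -0.29 (SE 0.35, edgeR adjusted p = 1).

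Of the 8 genes of growth arrest, 3 were higher. Ccng1, cyclin G1, which recruits a phosphatase to Mdm2, stood at 83.5 and 65.6 CPM in HU_Flag_RIP, at 19.4 and 15.9 in Flag_RIP and at 15.9 and 9.46 in IgG_RIP. Its log2 fold change against Flag_RIP was 2.08 (SE 0.33, edgeR adjusted p = 0.0022). Btg2, an antiproliferative partner of the mRNA deadenylase complex, stood at 43.5 and 68.2 CPM in HU_Flag_RIP and at 8.83 and 15.6 in Flag_RIP, a log2 fold change of 2.20 (SE 0.37, edgeR adjusted p = 0.0030). For both genes the HU libraries lay far above the other 4 libraries. Cdkn1a, the cyclin-dependent kinase inhibitor p21, stood at 27.2 and 18.5 CPM in HU_Flag_RIP, at 1.84 and 7.74 in Flag_RIP and at 9.55 and 7.43 in IgG_RIP. Its log2 fold change was 2.28 (SE 0.51, edgeR adjusted p = 0.044), and its Flag_RIP libraries were further apart, as a ratio, than those of Ccng1 or Btg2. Plk2, Zmat3 and Gadd45a had values of 1.63, 1.13 and 0.40 and Plk3 and Gdf15 of 0.52 and 0.73 on the log2 scale, none of which passed the test.

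Trp53inp1, a stress protein that acts in autophagy and cell death, stood at 112 and 77.3 CPM in HU_Flag_RIP, at 18.1 and 27.7 in Flag_RIP and at 18.1 and 20.1 in IgG_RIP. It had the smallest adjusted p of the 29 genes tested, with a log2 fold change of 2.05 (SE 0.32, edgeR adjusted p = 0.0020). The sestrins Sesn1 and Sesn2, which restrain the growth kinase mTORC1, did not pass. Sesn2 stood at 43.4 and 28.0 CPM in HU_Flag_RIP, at 14.0 and 15.6 in Flag_RIP and at 45.9 and 38.0 in IgG_RIP, so the HU libraries lay above Flag_RIP but not above IgG_RIP.

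Of the 10 cell death genes tested, 2 were higher. Phlda3, a repressor of Akt signalling, stood at 19.4 and 15.7 CPM in HU_Flag_RIP, at 3.30 and 3.12 in Flag_RIP and at 1.59 and 2.87 in IgG_RIP, a log2 fold change against Flag_RIP of 2.45 (SE 0.48, edgeR adjusted p = 0.012). Apaf1, the scaffold of the apoptosome, stood at 13.3 and 17.6 CPM in HU_Flag_RIP and at 3.30 and 3.62 in Flag_RIP, a log2 fold change of 2.15 (SE 0.46, edgeR adjusted p = 0.026). The libraries of both genes were well separated. Bbc3, which encodes the BH3-only protein Puma, stood at 11.9 and 9.51 CPM in HU_Flag_RIP and at 4.27 and 4.62 in Flag_RIP. The Bbc3 libraries did not overlap, but its log2 fold change of 1.27 did not pass (SE 0.48, edgeR adjusted p = 0.89). Bax, the pore-forming effector of mitochondrial death, stood at 49.0 and 38.4 CPM in HU_Flag_RIP and at 37.1 and 44.8 in Flag_RIP, which overlap. Perp, Eda2r, Ei24, Pmaip1, Tnfrsf10b and Aen had log2 fold changes between 0.48 and 2.03 that did not pass.

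Of the 5 repair genes, Zfp365, which takes part in repair at stalled forks, was higher, at 16.9 and 26.9 CPM in HU_Flag_RIP, 2.04 and 5.49 in Flag_RIP and 6.56 and 2.36 in IgG_RIP. Its log2 fold change against Flag_RIP was 2.55 (SE 0.53, edgeR adjusted p = 0.023). Ddb2, Xpc, Ercc5 and Rrm2b were at or below 6.89 CPM in every RIP library and did not pass. Dram1 and Fas were too low to be tested. Fas, a death receptor, had 0 counts in both Flag_RIP libraries, where 3 counts would be 0.291 and 0.375 CPM.

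**Figure D1:**
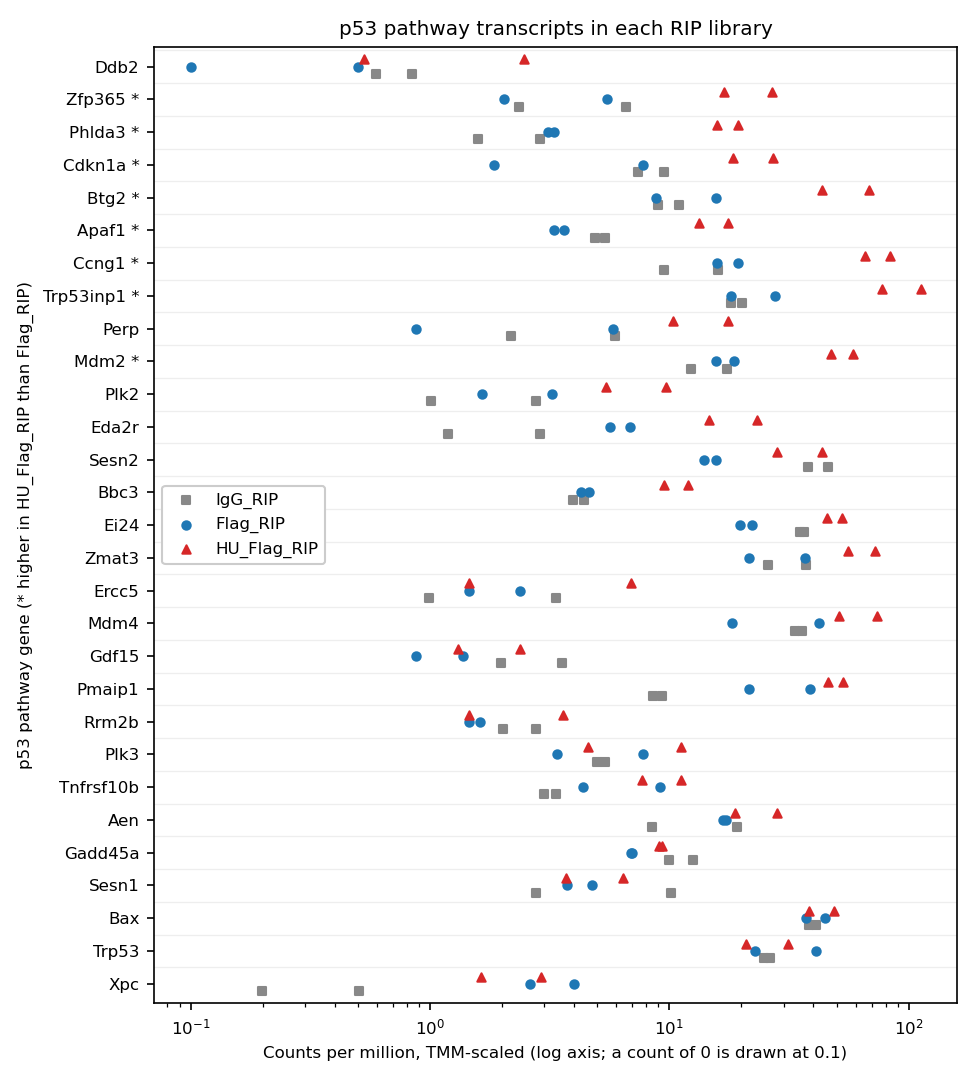
CPM (counts scaled to library depth) on a log axis for the 29 p53 pathway genes tested in the RIP libraries; each symbol is 1 library, squares IgG_RIP, circles Flag_RIP and triangles HU_Flag_RIP, with stars at the 8 genes called higher in HU_Flag_RIP than in Flag_RIP and a count of 0 drawn at 0.1. The triangles of Trp53inp1, Ccng1, Btg2, Phlda3, Mdm2, Zfp365, Apaf1 and Cdkn1a lie to the right of all 4 other symbols, while those of Trp53 and Bax overlap them.

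The separation ran wider than the calls. In 20 of the 29 genes both HU libraries lay above both Flag_RIP libraries, and in 0 genes below; over all genes tested, 15.6% were higher and 15.0% lower in this way. The 12 such genes that did not pass were Mdm4, Gadd45a, Plk2, Zmat3, Sesn2, Bbc3, Pmaip1, Eda2r, Aen, Perp, Ei24 and Ddb2. Ddb2, Gadd45a and Aen were separated only after scaling to library depth. Before scaling, Ddb2 had 4 and 15 counts in HU_Flag_RIP and 0 and 4 in Flag_RIP. Gadd45a had 68 and 57 against 71 and 56 counts, and Aen 213 and 115 against 172 and 138. The libraries overlapped for Trp53, Plk3, Gdf15, Sesn1, Bax, Tnfrsf10b, Rrm2b, Xpc and Ercc5. The fitted difference was positive in 27 genes and negative in 2, Trp53 and Xpc.

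**Figure D2:**
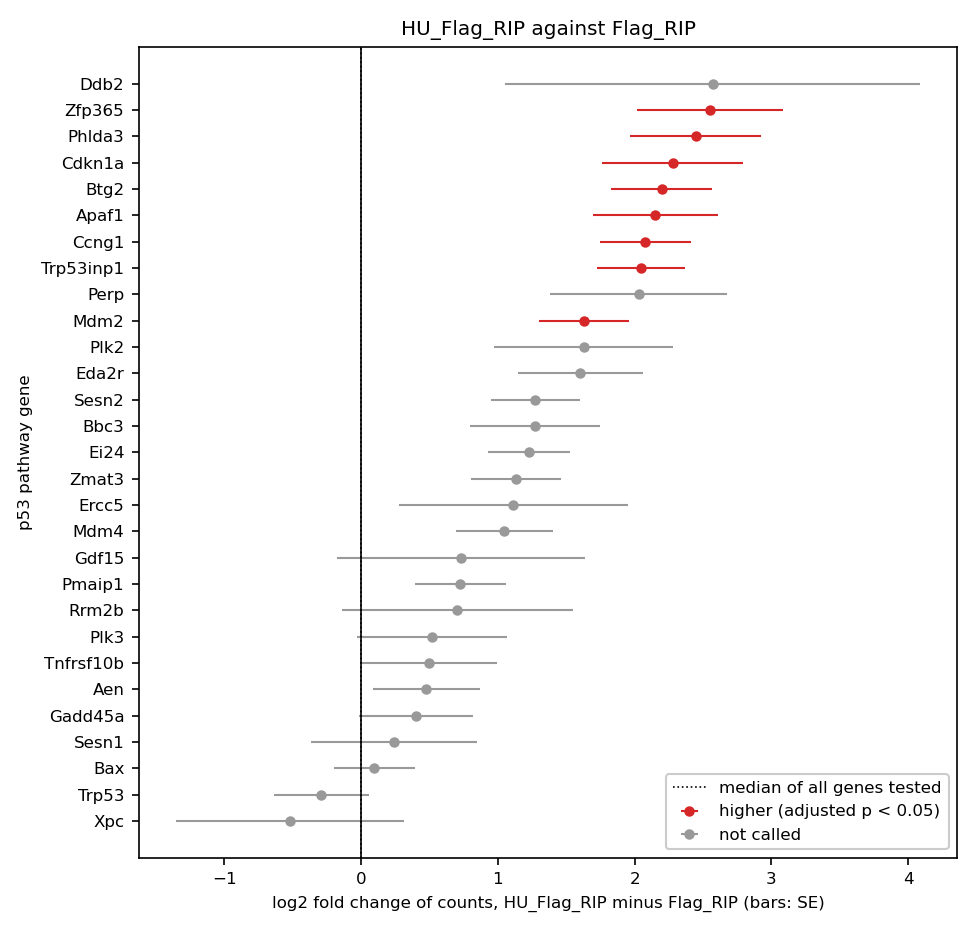
Log2 fold change of counts, HU_Flag_RIP minus Flag_RIP, for each of the 29 genes tested; points are edgeR estimates, bars are standard errors, and red marks the 8 genes past an adjusted p of 0.05. The red points lie between 1.63 and 2.55, the dotted line marks the median of all genes tested, and Trp53 and Xpc lie to the left of 0.

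Btg2, Ccng1 and Trp53inp1 were called in each of 13 alternative fits. The count of 8 fell to 4 without Flag_RIP replicate 1 or with only the 4 Flag libraries in the fit, and to 5 without HU_Flag_RIP replicate 1 or without either IgG_RIP library. The call of Cdkn1a, and that of Apaf1, ended in 7 of the 13 fits, that of Mdm2 in 5, and those of Phlda3 and Zfp365 in 3 each. The calls of all 5 ended in a fit without Flag_RIP replicate 1; those of Cdkn1a, Apaf1 and Phlda3 also ended without HU_Flag_RIP replicate 1, those of Mdm2, Apaf1 and Zfp365 without HU_Flag_RIP replicate 2, those of Apaf1 and Phlda3 without Flag_RIP replicate 2, and those of Cdkn1a, Mdm2 and Apaf1 without either IgG_RIP library. Of the macrophage markers, Lyz2 was among the 15 genes called higher. The list summed to between 4.46 and 5.49 CPM in Flag_RIP, 10.5 and 36.2 in HU_Flag_RIP and 46.1 and 111 in IgG_RIP. Lyz2 made up most of each sum: with the Flag antibody it had 9.69 and 32.6 CPM after HU, against 3.30 and 4.12 untreated. Before scaling, Ptprc had 3 and 11 counts after HU against 0 in both untreated Flag libraries. Csf1r (1 and 3 against 5 and 0) and Cd68 (2 and 6 against 7 and 11) showed no such rise. Both IgG libraries held Csf1r (35 and 12 counts) and Ptprc (14 and 8). The defining marker Adgre1 had 2 counts in HU_Flag_RIP replicate 2 and 0 counts in the other 5 libraries. The 8 pluripotency markers had log2 fold changes between -0.59 and -0.04 in HU_Flag_RIP against Flag_RIP, none of which passed, and summed to between 471 and 597 CPM in HU_Flag_RIP and between 672 and 687 in Flag_RIP. The part of these markers in the result was not tested.

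Further lists cover the rest of the pathway. Of 21 other p53 targets tested, 1 was higher in HU_Flag_RIP than in Flag_RIP and 0 were lower, with a median log2 fold change of 0.61. That gene was Rap2b, a Ras-like GTPase, at 19.5 and 20.3 CPM against 4.56 and 6.49 (log2 fold change 1.85, SE 0.42, edgeR adjusted p = 0.047). Of 22 upstream regulators and partners of p53, 0 were called in either direction, and their median was -0.17; Aurka, the one with the smallest p, had a value of -1.33 (SE 0.40, edgeR adjusted p = 0.40). Of 16 cell-cycle genes that p21 is known to lower through the DREAM complex of transcription repressors, 0 were called, with a median of -0.61; Plk1, a mitotic kinase, had a value of -1.35 (SE 0.45, edgeR adjusted p = 0.62). At an unadjusted p under 0.05, 415 of all genes tested differed in this comparison.

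Set against IgG_RIP, HU_Flag_RIP again held 8 of the 29 genes higher and 0 lower, with 1.44% of all genes tested called higher and 1.42% lower. This comparison shares the HU libraries with the one above and differs in both the antibody and the treatment. Of the 8 genes, 6 were also higher than in Flag_RIP (Mdm2, Ccng1, Btg2, Trp53inp1, Phlda3 and Zfp365), and the other 2 were Pmaip1 and Eda2r. Both HU libraries lay above both IgG_RIP libraries in 18 genes and below in 1, Gadd45a, where 24.0% and 23.4% of all genes did so. The median was 1.36 over the 29 genes and 0.04 over all genes. Ccng1 had the smallest adjusted p, with a log2 fold change of 2.56 (SE 0.35, edgeR adjusted p = 0.00064), and Mdm2 had 1.83 (SE 0.33, edgeR adjusted p = 0.0044).

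Eda2r, a death receptor of the TNF receptor family, stood at 23.2 and 14.6 CPM in HU_Flag_RIP, 5.63 and 6.87 in Flag_RIP and 1.19 and 2.87 in IgG_RIP. Its libraries thus formed 3 separate levels, and the difference from IgG_RIP was 3.19 (SE 0.52, edgeR adjusted p = 0.0021). Pmaip1, which encodes the BH3-only protein Noxa, again lay in 3 levels. It stood at 46.1 and 53.3 CPM in HU_Flag_RIP, 21.4 and 38.7 in Flag_RIP and 8.55 and 9.29 in IgG_RIP. Of the steps between adjacent levels of these genes, only that of Pmaip1 from IgG_RIP to Flag_RIP passed the test. For HU_Flag_RIP against IgG_RIP, Pmaip1 had 2.47 (SE 0.36, edgeR adjusted p = 0.0010). Cdkn1a (1.43, SE 0.50, edgeR adjusted p = 0.13), Bbc3 (1.36, SE 0.49, edgeR adjusted p = 0.15) and Trp53 (0.03, SE 0.35, edgeR adjusted p = 0.98) did not pass. The count of 8 fell to 1 without either IgG_RIP library, which were the shallowest of the 6: Ccng1 remained called without replicate 1, and Eda2r without replicate 2. With library size alone as the scale, which moved the median of all genes to -0.88, 6 genes were higher and 2 lower.

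Of 21 other p53 targets, 4 were higher in HU_Flag_RIP than in IgG_RIP and 0 lower. Slc19a2, a thiamine transporter, stood at 30.1 and 23.1 CPM against 4.57 and 3.21 (log2 fold change 2.78, SE 0.42, edgeR adjusted p = 0.0010), and Rap2b at 19.5 and 20.3 against 3.98 and 3.38 (2.44, SE 0.45, edgeR adjusted p = 0.0045). Dcxr, a carbonyl reductase, stood at 2.65 and 7.22 CPM against 0 in both IgG_RIP libraries, where 3 counts would be 0.597 and 0.507 CPM. The fourth was Psrc1. Of the 22 regulators and partners and the 16 cell-cycle genes, 0 were called; the smallest p belonged to Setd7 (4.78 and 9.51 CPM against 1.79 and 1.52, edgeR adjusted p = 0.066) and Top2a (-1.04, SE 0.31, edgeR adjusted p = 0.074).

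Without HU, the Flag antibody recovered few of these RNAs differently from IgG. Of the 29 genes, Pmaip1 was higher in Flag_RIP and Sesn2 lower, and 27 did not pass; of all genes tested, 1.16% were called higher and 1.16% lower. Pmaip1 rose by 1.75 on the log2 scale (SE 0.36, edgeR adjusted p = 0.012) and Sesn2 fell by 1.50 (SE 0.33, edgeR adjusted p = 0.019), from the levels given above. The median over the 29 genes was 0.04, beside 0.02 over all genes. Trp53 (0.32, SE 0.35), Mdm2 (0.20, SE 0.33), Cdkn1a (-0.84, SE 0.52) and Bbc3 (0.08, SE 0.50) had edgeR adjusted p-values between 0.48 and 0.97. In 5 genes both Flag_RIP libraries lay above both IgG_RIP libraries and in 7 below, where 23.8% and 22.8% of all genes did so. Of the other p53 targets, the regulators and the cell-cycle genes, 0 were called; the smallest p-values belonged to Slc19a2 (1.24, SE 0.42, edgeR adjusted p = 0.13), Setd7 (2.05, SE 0.60, edgeR adjusted p = 0.083) and Mki67 (1.11, SE 0.37, edgeR adjusted p = 0.13). At an unadjusted p under 0.05, 1608 of all genes differed.

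These 2 calls depended on single libraries and on the scale. Without either IgG_RIP library 0 genes were called, the Sesn2 call ended without Flag_RIP replicate 1 and the Pmaip1 call without Flag_RIP replicate 2. With library size alone, which moved the median of all genes to -0.87, 7 genes were lower and 0 higher.

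In the RNA-seq libraries the knockdown of Dppa5a went with lower levels of several p53 targets and a higher level of Trp53 itself. Of the 29 genes tested, 9 were lower in Dppa5a_KD than in KD_control (Ddb2, Tnfrsf10b, Mdm4, Rrm2b, Bbc3, Ercc5, Cdkn1a, Ei24 and Pmaip1), 4 were higher (Sesn2, Perp, Trp53 and Zfp365) and 16 did not pass. Of all 12345 genes tested, 23.8% were called lower and 13.6% higher; nothing particular to the p53 pathway is read from these counts. Fold changes were taken on the log2(FPKM + 1) scale, which understates the change of low genes, and tested with limma. In 16 genes both knockdown libraries lay below both controls and in 6 above, where 44.8% and 30.8% of all genes did so. The median was -0.30 over the 29 genes and -0.11 over all genes.

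Among the regulators, Trp53 was at 179 and 247 FPKM in Dppa5a_KD and at 128 and 128 in KD_control. Both knockdown libraries were above both controls but far from each other, and the log2 fold change was 0.72 (SE 0.19, limma adjusted p = 0.043). Mdm4 was at 18.4 and 15.9 FPKM in Dppa5a_KD and 33.2 and 34.6 in KD_control (log2 fold change -0.94, SE 0.11, limma adjusted p = 0.0076). Mdm2 was at 43.6 and 41.2 FPKM against 52.5 and 53.4, which do not overlap, but its difference of -0.32 did not pass (SE 0.10, limma adjusted p = 0.065).

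Of the 8 growth arrest genes, Cdkn1a was the only one called. It was at 36.8 and 41.9 FPKM in Dppa5a_KD and 61.8 and 65.1 in KD_control (log2 fold change -0.68, SE 0.12, limma adjusted p = 0.015). Ccng1 and Btg2, which were higher in HU_Flag_RIP, had log2 values of 0.02 and 0.21 here and did not pass. Gadd45a, Plk2, Plk3, Gdf15 and Zmat3 lay between -0.37 and 0.20.

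Cell death genes fell in 4 cases and rose in 1 of the 10 tested. Bbc3 was at 16.3 and 21.5 FPKM in Dppa5a_KD and 44.2 and 45.0 in KD_control, below the controls in both libraries (log2 fold change -1.21, SE 0.15, limma adjusted p = 0.0084). Tnfrsf10b, the mouse TRAIL receptor, was at 10.9 and 11.7 FPKM against 23.7 and 23.9 (-1.02, SE 0.10, limma adjusted p = 0.0063). Ei24, a protein of the endoplasmic reticulum, was at 95.3 and 101 FPKM against 133 and 143, and Pmaip1 at 44.5 and 47.4 against 60.6 and 61.9. Perp, a membrane protein of desmosomes, went the other way, at 58.5 and 54.2 FPKM against 31.6 and 33.3 (0.78, SE 0.10, limma adjusted p = 0.0092). Bax was at 142 and 281 FPKM in the knockdown libraries, on either side of the controls at 254 and 251.

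Of the 5 repair genes, 3 fell and 1 rose. Ddb2, which recognises ultraviolet damage, was at 4.46 and 5.20 FPKM in Dppa5a_KD and 12.1 and 12.9 in KD_control (log2 fold change -1.21, SE 0.12, limma adjusted p = 0.0063). Rrm2b, a ribonucleotide reductase subunit that supplies nucleotides for repair, was at 1.75 and 2.02 FPKM against 4.58 and 4.27 (-0.91, SE 0.11, limma adjusted p = 0.0080). Ercc5, the endonuclease Xpg, was at 6.76 and 6.29 FPKM against 11.2 and 10.7 (-0.67, SE 0.10, limma adjusted p = 0.012). Zfp365 rose from 3.69 and 3.90 to 7.39 and 5.71 FPKM (0.65, SE 0.15, limma adjusted p = 0.028). Of the stress genes, Sesn2 rose from 42.3 and 40.9 to 80.2 and 69.3 FPKM (0.83, SE 0.12, limma adjusted p = 0.011), while Sesn1 and Trp53inp1 did not pass. Dram1 and Fas were below 1 FPKM in all 4 libraries and were not tested.

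**Figure D3:**
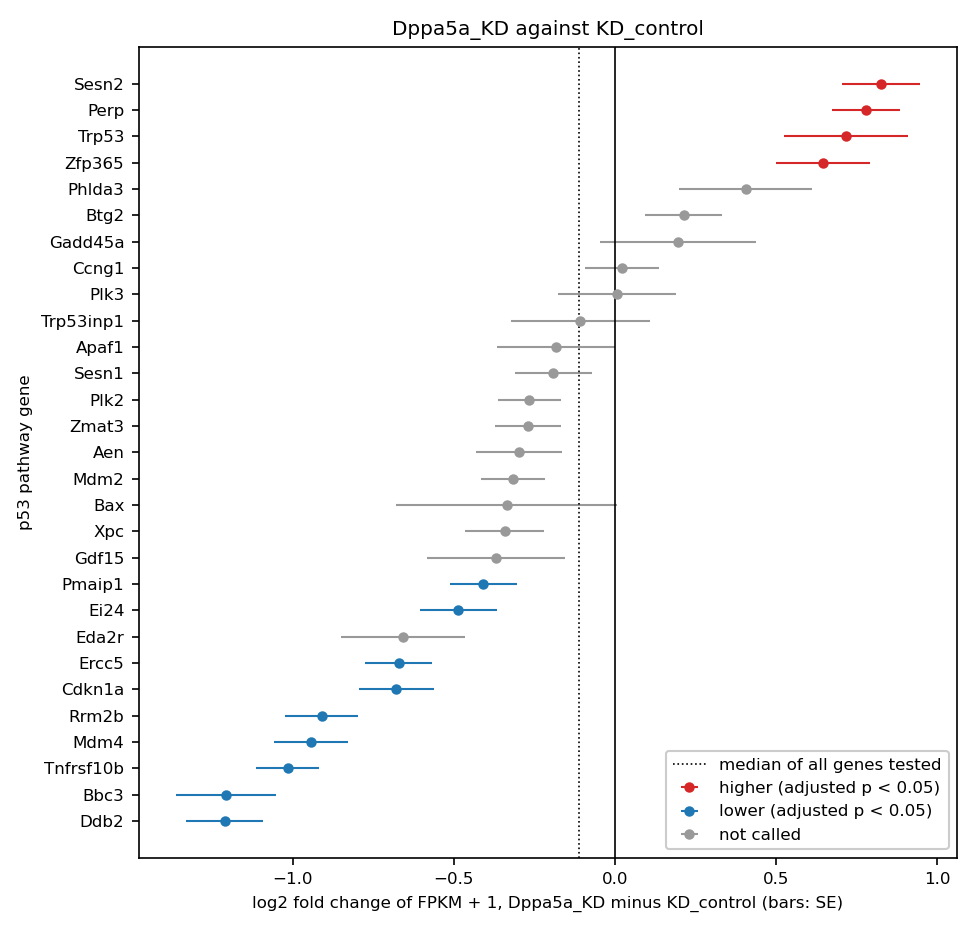
Difference of log2(FPKM + 1), Dppa5a_KD minus KD_control, for each of the 29 p53 pathway genes tested; points are limma estimates and bars standard errors, coloured by call. Ddb2 and Bbc3 lie at -1.21, Sesn2, Perp, Trp53 and Zfp365 lie between 0.65 and 0.83, and the dotted line marks the median of all genes tested.

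Ddb2, Mdm4, Rrm2b and Tnfrsf10b were called in each of 10 alternative fits, and Bbc3 lost its call only with all 8 RNA-seq libraries in the fit. The other 8 called genes lost their calls without either KD_control library, and Ei24 and Pmaip1 also after scaling each library to the same total FPKM or by median ratios. Ercc5 and Zfp365 lost theirs after scaling to the same total FPKM, Trp53 and Zfp365 with no filter on low values, and Trp53, Zfp365, Ei24 and Pmaip1 with all 8 RNA-seq libraries in the fit. With the replicate block the calls of Ei24 and Pmaip1 ended. Without either KD_control library 5 genes were called, and without Dppa5a_KD replicate 1 or 2 the number was 26 or 25, since the spread then came from the other group alone. In the same libraries 3 of 4 trophectoderm markers, 3 of 4 primitive endoderm markers and 2 of 3 fibroblast markers tested were lower in Dppa5a_KD, and the fourth trophectoderm marker was higher; their sums were 33.3 to 36.0 against 56.2 to 58.5 FPKM, 21.6 to 29.5 against 34.3 to 35.7 FPKM and 139 to 169 against 207 to 208 FPKM. The 1 macrophage marker tested was higher, and that list summed to 15.1 to 18.4 against 10.1 to 10.2 FPKM. Of the 10 fibroblast markers, 7 were below 1 FPKM in both libraries of each group. The median log2 fold change of all genes also ran with an index taken from the FPKM bounds in KD_control, cut into 10 equal groups. It went from -0.36 in the lowest group to 0.07 in the highest. The index was meant to follow transcript length, but it also changes with the level of a gene and comes from a group of this comparison. No effect of length is therefore read from it. Of the called genes, Trp53 (0.72) and Ei24 (-0.49) lay in the lowest group of this index and Cdkn1a (-0.68) in group 2, with a median of -0.20. Ddb2 and Mdm4 lay in groups 3 and 7, with medians of -0.14 and -0.07. The part of these trends in the result was not tested.

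Of 22 other p53 targets, 8 were lower in the knockdown and 3 higher. Ephx1, an epoxide hydrolase, fell from 43.7 and 45.8 to 15.2 and 18.7 FPKM (log2 fold change -1.36, SE 0.13, limma adjusted p = 0.0062), with Zfp385a and Steap3 also lower. Sfn, the cell-cycle inhibitor 14-3-3 sigma, rose from 47.6 and 50.6 to 98.7 and 135 FPKM (1.22, SE 0.18, limma adjusted p = 0.011), with Tigar and Rap2b also higher. Of 24 regulators and partners, 5 were lower, among them Ppp1r13l, Cdkn2a and Ppp1r13b, and 3 were higher, Sirt1, Smyd2 and Usp7. Sirt1, a deacetylase of p53, was at 21.2 and 17.3 FPKM against 7.61 and 8.49 (1.16, SE 0.14, limma adjusted p = 0.0076). Of the 16 cell-cycle genes, E2f1 and Aurkb were lower and 0 were higher.

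The control of the knockdown was compared with the other wild type stem cells. Of 30 genes tested, 11 were higher in KD_control than in mESC (Ddb2, Perp, Pmaip1, Gdf15, Rrm2b, Tnfrsf10b, Ei24, Xpc, Plk2, Sesn1 and Cdkn1a) and 2 were lower (Plk3 and Ccng1), where 26.5% of all 12595 genes tested were called higher and 15.0% lower; nothing particular to the p53 pathway is read from these counts. Both groups are labelled wild type and untreated, so the group, the line and the batch cannot be told apart. The groups differed in the Y-linked gene Eif2s3y, at 43.2 and 41.2 FPKM in mESC and 0 in both KD_control libraries. Dppa5a, the targeted gene, was at 1485 and 1818 FPKM in mESC and at 5126 and 5417 in KD_control. The part of these differences in the result was not tested. Between these libraries 4 of 6 primitive endoderm markers were lower in KD_control, with sums of 34.3 to 35.7 against 81.8 to 134 FPKM in mESC. Of 8 pluripotency markers 3 were higher and 1 lower, with sums of 3639 to 3685 against 2167 to 3091 FPKM, and 2 of 3 fibroblast markers tested were higher, with sums of 207 to 208 against 71.4 to 81.1 FPKM. Of 4 trophectoderm markers tested 1 was higher, with sums of 56.2 to 58.5 against 20.5 to 52.6 FPKM, and the 1 macrophage marker tested was higher, with sums of 10.1 to 10.2 against 4.30 to 5.67 FPKM. The part of these markers in the result was not tested. This comparison shares the KD_control libraries with the knockdown: 6 of the 9 genes lower in Dppa5a_KD were among the 11 here. The values of both comparisons are therefore given side by side, and a shared control moves them in opposite directions.

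Pmaip1 was at 12.0 and 15.8 FPKM in mESC, 60.6 and 61.9 in KD_control and 44.5 and 47.4 in Dppa5a_KD (KD_control against mESC 2.08, SE 0.18, limma adjusted p = 0.0075). Ddb2 was at 2.75 and 3.06 FPKM in mESC, below both KD_control at 12.1 and 12.9 and Dppa5a_KD at 4.46 and 5.20 (1.79, SE 0.14, limma adjusted p = 0.0072). For both genes the knockdown libraries thus lay between the stem cell groups. Perp was at 8.38 and 9.58 FPKM in mESC and 31.6 and 33.3 in KD_control (1.75, SE 0.15, limma adjusted p = 0.0073), with the knockdown higher still. Gdf15, a stress-induced cytokine, was at 4.67 and 7.05 FPKM in mESC and 31.0 and 26.4 in KD_control (2.13, SE 0.23, limma adjusted p = 0.0088). Cdkn1a was at 29.2 and 37.3 FPKM in mESC, 61.8 and 65.1 in KD_control and 36.8 and 41.9 in Dppa5a_KD (0.92, SE 0.18, limma adjusted p = 0.022), so the mESC and knockdown libraries overlapped.

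Bbc3 was at 5.21 and 19.4 FPKM in mESC, far apart, and at 44.2 and 45.0 in KD_control, a log2 fold change of 2.02 that did not pass (SE 0.60, limma adjusted p = 0.057). Trp53 was at 175 and 238 FPKM in mESC and 128 and 128 in KD_control (-0.67, SE 0.21, limma adjusted p = 0.061), and Mdm2 at 71.3 and 47.7 against 52.5 and 53.4 (-0.14, SE 0.24, limma adjusted p = 0.66). The direction of Mdm2 turned on 1 mESC library: it was 0.15 without mESC replicate 1 (limma adjusted p = 0.021) and -0.42 without replicate 2 (limma adjusted p = 0.00022). Ccng1 fell from 125 and 68.1 FPKM in mESC to 40.5 and 40.0 in KD_control (-1.18, SE 0.33, limma adjusted p = 0.049). Fas was not tested. In 14 genes both KD_control libraries lay above both mESC libraries and in 6 below, where 47.9% and 32.0% of all genes did so. The median was 0.23 over the 30 genes and 0.19 over all genes. With median-ratio scaling these medians were 0.0055 and -0.02. Without either KD_control library 5 genes were called, and without mESC replicate 1 or 2 the number was 26 or 28. Ddb2, Perp, Pmaip1 and Gdf15 were called in each of 10 alternative fits, while the calls of Plk3 and Ccng1 ended with a pseudocount of 0.1 or with no filter on low values.

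Of 23 other p53 targets, 5 were higher in KD_control, among them Dcxr, Pml and Cyfip2, and 1, Ckap2, was lower. Of 24 regulators and partners, 8 were lower, among them Cdkn2a, Atr and Usp7, and 2, Ppp1r13b and Ppp1r13l, were higher. Cdkn2a, whose product Arf inhibits Mdm2, was at 14.3 and 23.6 FPKM in mESC, 2.29 and 1.99 in KD_control and 0.193 and 0.563 in Dppa5a_KD. Of the 16 cell-cycle genes, E2f1 and Aurkb were higher and Mki67 was lower.

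Wild type stem cells were also compared with fibroblasts. Of the 31 genes, 11 were higher in mESC than in MEF (Plk3, Trp53inp1, Sesn1, Perp, Trp53, Pmaip1, Mdm4, Xpc, Ei24, Gadd45a and Sesn2), 5 were lower (Plk2, Fas, Cdkn1a, Dram1 and Tnfrsf10b) and 15 did not pass. Of all 12875 genes tested, 30.6% were called higher and 26.1% lower, so the count of higher genes was near the background and that of lower genes below it; nothing particular to the p53 pathway is read from these counts. The libraries did not overlap in 18 genes higher and 7 lower in mESC, where 44.2% and 35.6% of all genes did so. The median was 0.46 over the 31 genes and 0.15 over all genes.

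Trp53 was at 175 and 238 FPKM in mESC and 87.8 and 78.8 in MEF (log2 fold change 1.29, SE 0.25, limma adjusted p = 0.0085). Cdkn1a went the other way, at 29.2 and 37.3 FPKM in mESC and 122 and 111 in MEF (-1.79, SE 0.23, limma adjusted p = 0.0020). Trp53inp1 was at 68.3 and 39.6 FPKM in mESC and 8.71 and 11.7 in MEF (2.26, SE 0.33, limma adjusted p = 0.0030). The mESC libraries lay apart from the MEF libraries for all 3 genes.

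Plk3, a stress-responsive polo-like kinase, was at 27.2 and 36.1 FPKM in mESC and 8.40 and 6.89 in MEF (1.91, SE 0.24, limma adjusted p = 0.0019). Its relative Plk2 was at 13.6 and 13.7 FPKM in mESC and 74.7 and 79.4 in MEF (-2.41, SE 0.20, limma adjusted p = 0.00046), so these kinases differed in opposite directions. Fas was at 0.253 and 0.404 FPKM in mESC and 4.19 and 4.15 in MEF (-1.96, SE 0.17, limma adjusted p = 0.00053). Sesn1 was at 15.3 and 10.5 FPKM in mESC and 4.67 and 3.88 in MEF (1.38, SE 0.25, limma adjusted p = 0.0066). Dram1, a lysosomal protein of autophagy, was at 1.36 and 3.09 FPKM in mESC and 6.66 and 8.30 in MEF (-1.44, SE 0.31, limma adjusted p = 0.012).

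Mdm2 (0.57, SE 0.27, limma adjusted p = 0.12) and Bbc3 (0.91, SE 0.63, limma adjusted p = 0.26) did not pass. Phlda3 had 128 and 73.8 FPKM in the MEF libraries against 29.5 and 60.1 in the mESC libraries without a call, and the same order held for Rrm2b. The others that did not pass were Ccng1, Btg2, Gdf15, Zmat3, Bax, Eda2r, Aen, Apaf1, Ddb2, Ercc5 and Zfp365. Plk2 and Fas were called in each of 11 alternative fits. Without either MEF library 3 genes were called, the other being Plk3 without replicate 1 and Cdkn1a without replicate 2.

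Of 23 other p53 targets, 11 were higher in mESC, led by Tigar, Cyfip2 and Gtse1, and 3 were lower, among them Igfbp3 and Ephx1. Igfbp3, a binding protein of insulin-like growth factors, was at 5.52 and 3.78 FPKM in mESC and 109 and 105 in MEF (-4.28, SE 0.24, limma adjusted p = 0.00015). Of 24 regulators and partners, 10 were higher, led by Chek2, Usp7 and Trp73, and 2, Setd7 and Rfwd2, were lower. Of the 16 cell-cycle genes, 9 were higher, led by Bub1, Ccnb2 and Chek1, and 0 were lower.

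**Figure D4:**
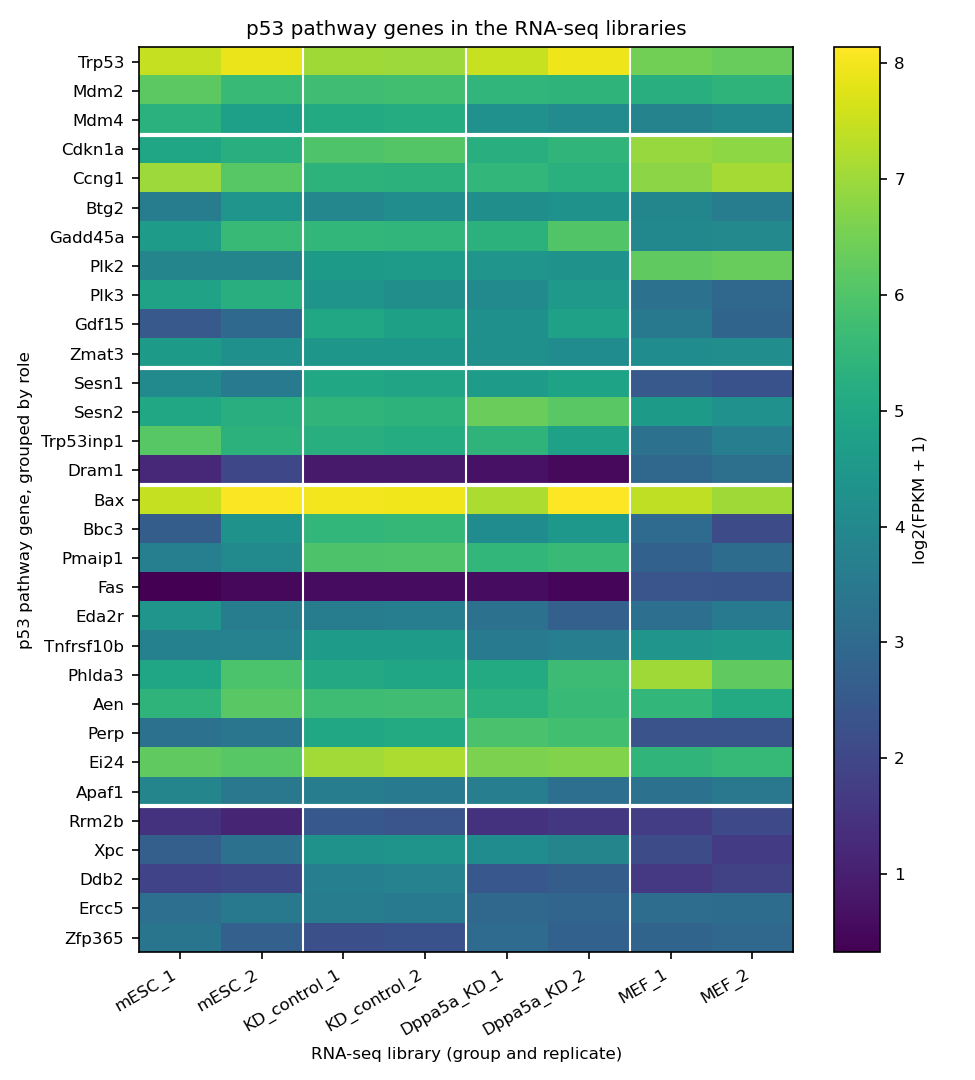
FPKM of the 31 p53 pathway genes in the 8 RNA-seq libraries, coloured on the log2(FPKM + 1) scale, with genes in rows ordered by role and libraries in columns by group. Bax lies between 129 and 281 FPKM across the 8 libraries, Fas lies below 1 FPKM in all 6 stem cell libraries, and the KD_control columns stand above mESC for Pmaip1, Perp, Ddb2 and Gdf15.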

How the data were processed

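For RNA-seq (8 libraries) the authors deposited FPKM per gene with confidence bounds, per the file headers. For RIP (6 libraries) they deposited whole-number read counts by gene symbol. No source used here says whether reads were assigned by strand, so reads of a gene and of an overlapping antisense gene could be mixed. HTSeq 0.6.1, Cuffdiff 2.1.1, Cufflinks 2.1.1, TopHat2 2.0.8, CASAVA 2.19 and the build mm10 stand in the submitters' processing notes without their roles. FPKM were summed over the loci of a symbol; 27 symbols that read as dates and 1 failed gene were left out. FPKM were tested with limma 3.58.1 (limma-trend) on log2(FPKM + 1) in the 4 libraries compared, keeping genes that averaged 1 FPKM or more in at least 1 group. Counts were tested with edgeR 4.0.16 (TMM, filterByExpr, quasi-likelihood, all 6 libraries in 1 fit) in R 4.3.3, with DESeq2 1.42.0 as an alternative. TMM factors were 1.45 and 1.60 in IgG_RIP and between 0.782 and 0.846 in the Flag libraries. Adjusted p-values are Benjamini-Hochberg values over all genes tested, called under 0.05. Both fits were also run on data simulated with independent replicates, which cannot show how they fare where replicates are technical.

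The genes named are Trp53, Cdkn1a, Mdm2 and Bbc3 in every comparison, the called genes of the 31 (up to 10 in each direction), and up to 3 called genes in each direction of each other list, or 1 where none was called; Psrc1 was named after its values were seen. The 31 genes and the lists were chosen with earlier results of these data known. Alternatives were other scalings, filters and pseudocounts, other sets of libraries, a replicate block and leaving out each library. Promoter windows are from RefSeq.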

Additional observations from a re-analysis of the deposited data

How the results depend on the processing

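In processing alternatives with all libraries kept, the number of p53 pathway genes called stayed within 1.5 times its value, with these exceptions. In the knockdown it was 8 in place of 13 with all 8 RNA-seq libraries in the fit, where genes called over all fell to 2992, and 2916 genes were called with FPKM rescaled to a common sum, in place of 4618. In Flag_RIP against IgG_RIP it was 7 in place of 2 with library size alone; all genes called were then 2272 in place of 243, or 433 with no filter on low counts. In HU_Flag_RIP against IgG_RIP genes called were 2709 with library size alone and 532 with no filter, in place of 300. In HU_Flag_RIP against Flag_RIP the pathway genes called were 4 in place of 8, and all genes 41 in place of 64, with those groups compared alone. The split of higher against lower calls moved with the scaling: with library size alone it was 64 and 2208 in place of 121 and 122 for Flag_RIP against IgG_RIP and 92 and 2617 in place of 151 and 149 for HU_Flag_RIP against IgG_RIP. With median-ratio scaling it was 3422 and 3741 in place of 3943 and 3361 for mESC against MEF, 2551 and 2123 in place of 1678 and 2940 for the knockdown, and 2600 and 2439 in place of 3336 and 1884 for KD_control against mESC; it moved the median log2 fold change of all genes from 0.15 to 0.01 in the first and from -0.11 to 0.05 in the second of these. The cause of these shifts was not tested.

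With each library left out in turn, where the lone library of a group is assumed to vary like the other groups, the pathway genes called ranged from 3 to 13 in mESC against MEF, 5 to 26 in the knockdown, 5 to 28 in KD_control against mESC, 0 to 2 in Flag_RIP against IgG_RIP, 1 to 12 in HU_Flag_RIP against IgG_RIP and 4 to 7 in HU_Flag_RIP against Flag_RIP. All genes called ranged, in the same order, from 2835 to 7056, 2415 to 9436, 1865 to 10895, 30 to 389, 25 to 521 and 45 to 71.

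The values that changed sign belonged to genes that were not called with all libraries kept; of the changed values, that of Mdm2 in KD_control against mESC passed the test. Trp53 in Flag_RIP against IgG_RIP turned to -0.59 with library size alone, and with single libraries left out it ranged from -0.16 (without Flag_RIP replicate 1) to 0.71. Trp53 in HU_Flag_RIP against IgG_RIP turned to -0.90 with library size alone, -0.011 with the replicate block and -0.015 without IgG_RIP replicate 2, with a leave-one-out range from -0.30 (without HU_Flag_RIP replicate 1) to 0.29. In HU_Flag_RIP against Flag_RIP it ranged from -0.66 to 0.20 (without Flag_RIP replicate 1). Mdm2 in Flag_RIP against IgG_RIP turned to -0.70 with library size alone and ranged from -0.0046 (without IgG_RIP replicate 1) to 0.47, and in KD_control against mESC from -0.42 to 0.15 (without mESC replicate 1). Bbc3 in Flag_RIP against IgG_RIP turned to -0.81 with library size alone.

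The replicate numbers were not taken to pair the samples, since the labels do not say that a number marks a shared culture and each comparison has only 2 numbers. Same-numbered libraries correlated in their deviations at 0.39 in HU_Flag_RIP against Flag_RIP and between -0.04 and 0.06 in the others, apart from mESC against MEF. With the replicate block, pathway genes called were 15 in mESC against MEF, 12 in the knockdown, 16 in KD_control against mESC, 2 in Flag_RIP against IgG_RIP, 11 in HU_Flag_RIP against IgG_RIP and 11 in HU_Flag_RIP against Flag_RIP, and all genes called in the comparisons with IgG_RIP were 508 and 621. Same-numbered libraries of mESC and MEF correlated at -0.57 in their deviations, so the crossed pairing was added after seeing the data; it called 22 pathway genes and 8950 genes in all. The 2 libraries per group and, in RIP, the counts left beside Rn45s limit what could be detected.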

Other observations

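The other 7 of the 15 genes higher in HU_Flag_RIP than in Flag_RIP, named after their values were seen, were Ccl9, Cep170b, Ddit4l, Lyz2, Rap2b, Rmrp and Tef. Ddit4l, an inhibitor of mTORC1 signalling, stood at 8.76 and 9.51 CPM in HU_Flag_RIP, 0.291 and 1.12 in Flag_RIP and 0 in both IgG_RIP libraries (log2 fold change against Flag_RIP 3.71, SE 0.79, edgeR adjusted p = 0.030). Tef, a PAR bZIP transcription factor, stood at 15.0 and 14.4 CPM in HU_Flag_RIP, 3.01 and 3.75 in Flag_RIP and 5.17 and 8.78 in IgG_RIP (2.12, SE 0.46, edgeR adjusted p = 0.033). Cep170b stood at 39.0 and 27.2 CPM in HU_Flag_RIP, 9.32 and 9.99 in Flag_RIP and 16.7 and 16.2 in IgG_RIP (1.78, SE 0.35, edgeR adjusted p = 0.013). For these 3 genes both HU libraries lay above all 4 others. Lyz2 and Ccl9, genes of macrophages, were instead highest in an IgG_RIP library, at 99.0 and 18.7 CPM. Rmrp, a very abundant RNA here, stood at 164499 and 188866 CPM in HU_Flag_RIP, 105919 and 94663 in Flag_RIP and 194899 and 222565 in IgG_RIP.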
